A study of Mus musculus with 6 samples.

Results

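The fragments described here are short pieces of tRNA that start at the 5′ end of the molecule with the 6 bases gcccgg, the start of the cytosolic lysine tRNAs. Members were all sequences of the class tRF_5 (fragments from the 5′ end of a tRNA) of 35 nt or less whose first 6 bases equal those of tRF_5_34. The rule used sequence and length, and no count. It found 47 sequences, of 430 tRF_5 sequences up to 35 nt and 1336 tRNA fragment (tRF) sequences of all kinds. Bases 7 to 10 divided them into 19 sequences with ATAG, 20 with CTAG and 8 with ATGA.

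Small RNA was sequenced from hearts of C57BL/6 mice, 3 controls and 3 with a muscle deletion of Elac2, at 1 library per mouse. Controls are titled L/L and carry a loxP-flanked exon of Elac2 without cre; their genotype label reads Elac2 +/+. Knockout mice are titled L/L, cre, with the genotype label Elac2 -/-, and carry the same flanked exon with cre under a muscle creatine kinase promoter, which is active in heart and skeletal muscle. RNA came from whole hearts, which also hold cell types that are not muscle, and the labels used here give no age. In whole hearts, fewer cells of a type and less RNA per cell cannot be told apart. Elac2 mRNA was not analysed here, so the genotype labels were not checked against the deleted gene.

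ELAC2, an RNase Z, trims the 3′ trailer of precursor tRNAs, an end of the molecule that these fragments do not reach. Lysine is read by tRNAs with the anticodons TTT and CTT (written as DNA). Cleavage of a mature tRNA within the anticodon loop releases a long 5′ piece, one of the stress-linked fragments known as tiRNAs, and cleavage in the D arm, the hairpin nearest the 5′ end, releases a shorter piece. The selenocysteine tRNA, which inserts selenocysteine at particular stop codons, begins with the same 6 bases.

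The sequences below carry the results. They are printed 5′ to 3′ with bases 7 to 10 in capitals, and base 29 also in capitals where a sequence reaches it. The first pair differ at A7C (positions count from 1 at the 5′ end), which separates the TTT type from the CTT type at 18 nt. The 29-nt pieces are given for both lysine types, and the last lines show the pieces that end in the anticodon loop.
tRF_5_34: gcccggATAGctcagtcg
tRF_5_36: gcccggCTAGctcagtcg
tRF_5_104: gcccggATAGctcagtcggtaga
tRF_5_222: gcccggATAGctcagtcggtagagcatcA
tRF_5_223: gcccggCTAGctcagtcggtagagcatgA
tRF_5_224: gcccggCTAGctcagtcggtagagcatgG
tRF_5_351: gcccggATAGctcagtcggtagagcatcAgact
tRF_5_353: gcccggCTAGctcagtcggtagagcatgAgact
tRF_5_416: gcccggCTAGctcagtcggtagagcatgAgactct
tRF_5_417: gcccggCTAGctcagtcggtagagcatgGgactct
tRF_5_89: gcccggATGAtcctcagtggtc

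The anticodon was read from longer sequences with the same start, which lie outside the length limit. In tRF_5_550, of 55 nt, bases 27 to 31 pair with bases 39 to 43 in 5 of 5 positions, and bases 34 to 36 of the 7-base loop are CTT. The capitals in the next lines mark bases 34 to 36. In tRF_5_528 (42 nt) 4 of the 4 pairs it reaches were formed and the anticodon was again CTT, and in tRF_5_518 (41 nt) 3 of 3 were formed and the anticodon was TTT.
tRF_5_550: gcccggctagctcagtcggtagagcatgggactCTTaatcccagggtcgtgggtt
tRF_5_528: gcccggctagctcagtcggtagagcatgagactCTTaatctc
tRF_5_518: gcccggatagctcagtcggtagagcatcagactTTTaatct

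All ATAG sequences are the start of tRF_5_518 and are called the TTT line here. The CTAG sequences are called the CTT line. From base 29 on this line has 2 forms, which differ at A29G: 7 members have A (the A form, the start of tRF_5_528), 7 have G (the G form, the start of tRF_5_550), and 6 end before base 29. No anticodon was read for the ATGA sequences, which are at most 35 nt long. They are called selenocysteine-type from their start alone. In all 3 longer sequences bases 10 to 13 pair with bases 22 to 25, so a fragment of 14 to 21 nt ends in the D loop, one of 22 to 25 nt in the D stem, one of 27 to 31 nt in the anticodon stem and one of 32 to 35 nt in the anticodon loop. RefSeq's table of the GRCm38.p6 build names 24 n-TKctt genes on 12 chromosomes and 2 n-TKttt genes, n-TKttt23 at chromosome 13 positions 21907940 to 21908012 and n-TKttt22 at 21971788 to 21971860. That table is not complete, and no fragment was traced to 1 gene copy.

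Each control library held 235046 to 773252 tRF counts and each knockout library 45354 to 61712; these totals are not sequencing depths. CPM values below are counts scaled to 1e6 of a library total adjusted by TMM, a method that sets the bulk of tested sequences equal between libraries. A filter on low counts passed 254 of 1336 sequences, among them 15 of the 47 members: 6 of the TTT line, 9 of the CTT line and 0 of the selenocysteine type. Nothing in the labels says that the libraries were made in separate batches. Knockout replicate 3 stood apart in the longest pieces: of the counts of 5′ fragments other than gcccgg sequences, 0.713% were 34 to 36 nt long there, against 3.17% and 3.29% in the other knockout libraries and 1.27% to 1.77% in controls.

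Members held 3062, 3493 and 3051 counts in control replicates 1 to 3 and 1955, 1644 and 1033 in knockout replicates 1 to 3. The knockout counts lay below all control counts. As a share of 5′ fragment counts up to 35 nt, however, lysine-type fragments made up 1.40%, 0.656% and 0.924% in controls and 4.49%, 4.78% and 1.91% in knockouts. Here the knockout libraries lay above all controls, with means of 0.994% ± 0.379 (SD, n = 3) and 3.73% ± 1.58 (SD, n = 3; p = 0.10 in an exact two-sided permutation test, the smallest that 3 against 3 libraries allow). Adjusted over the 4 shares tested in this way, p was 0.13. The 2 directions are measured on the same counts: the whole pool of 5′ fragments up to 35 nt was 8.20-fold smaller in the mean of knockout libraries, and the members 2.07-fold smaller.

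The CTT line supplied most of the counts. Over the 6 libraries the CTT line held 13194 counts, or 92.7% of all member counts, the TTT line 949 and the selenocysteine type 95. The 4 most abundant members, tRF_5_416, tRF_5_353, tRF_5_417 and tRF_5_321, held 70.2%. At the other end, 23 of the 47 members had under 20 counts over all libraries.

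The balance of the lysine lines did not overlap between the groups. The TTT line made up 5.89%, 3.36% and 4.22% of the lysine counts in controls and 8.47%, 11.9% and 16.4% in knockouts. All 3 knockout libraries lay above the controls, with means of 4.49% ± 1.28 and 12.3% ± 3.97 (SD, n = 3; exact permutation test, two-sided, p = 0.10, adjusted p = 0.13). Such a share is taken within a library and does not depend on scaling between libraries. It was closer between the groups among lysine members of 27 nt or more. There the TTT share was 3.24% ± 0.194 in controls and 3.85% ± 0.311 in knockouts (SD, n = 3). Again each knockout library lay above each control (exact permutation test, two-sided, p = 0.10). Among those of 20 nt or less it was 98.0% ± 3.46 and 97.9% ± 1.87 (SD, n = 3), and the groups overlapped. The line totals themselves passed no test. With each line summed, the log2 fold change in the knockout was 0.88 ± 0.56 (SE) for the TTT line (adjusted p = 0.27 by edgeR) and -0.70 ± 0.60 (SE) for the CTT line (adjusted p = 0.43 by edgeR). With library totals alone in place of TMM both lines were called higher, at 3.01 (adjusted p = 0.014 by edgeR) and 1.70 (adjusted p = 0.044 by edgeR), so the direction for the CTT line depends on the scaling. In CPM the TTT sum was 739, 787 and 832 in controls and 1214, 1680 and 1443 in knockouts, which do not overlap, although the test was not passed. In the table with each line as 1 row, 14% of tested rows were called higher and 16.9% lower with TMM, against 40.9% and 2.89% with library totals alone, the background of those 2 calls.

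Of the 15 members tested one by one, 2 were called higher (tRF_5_34 and tRF_5_104) and 1 lower (tRF_5_223) by edgeR's quasi-likelihood test at a Benjamini-Hochberg adjusted p under 0.05. The background over all 254 tested sequences was 15.7% called higher and 16.9% called lower. Knockout and control ranges were separate for 3 members on the higher side and 5 on the lower, against a background of 25.2% and 18.5%. The called share of lysine-type fragments was thus near or below that of tRF sequences in general. Separate ranges on the lower side were more frequent among members, at 5 of 15 against 47 of 254. All 5 were of the CTT line, and these ranges are of TMM-scaled CPM. Under other settings the number of members tested also changed. Of 15 tested with library totals alone, 7 were called higher and 0 lower (background 40.9% and 2.76%). Of 47 tested with no filter, 1 was called higher and 3 lower (background 1.87% and 5.54%). Of 25 tested by DESeq2, 1 was called higher and 3 lower (background 7.69% and 15.4%). In the main test the median log2 fold change of the 15 members was -0.37, against 0.06 over all tested sequences. This median covers only members that passed the filter, which is relative to library totals and admits a sequence on fewer counts in a knockout than in a control library. The TTT members tRF_5_222 and tRF_5_414, with more counts in controls, did not pass it. The more abundant tRF_5_351, with 195 counts in controls and 109 in knockouts, did. At an unadjusted p under 0.05 by edgeR there were 4 of the 15 members, against 99 of all 254 tested sequences.

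The fragment with the largest increase was tRF_5_34, the 18-nt D-loop piece of the TTT line. It had 6, 1 and 6 counts in control replicates 1 to 3 and 43, 95 and 85 in knockout replicates 1 to 3, although the knockout libraries held fewer tRF counts in all. The lowest knockout count lay well above the highest control count. In CPM these values were 25.3, 6.05 and 39.8 against 326, 838 and 755. The log2 fold change was 4.71 ± 0.86 (SE, adjusted p = 0.00098 by edgeR). This call held under each of 11 alternatives, no filter among them, with log2 fold changes from 4.27 to 6.73 and adjusted p from 4.5e-07 to 0.0084. It is not the result of an unselected search. The membership rule takes its 6 bases from tRF_5_34, and the members were chosen with earlier results of these data known. The filter of the main test admits a sequence on fewer counts in a knockout than in a control library, and tRF_5_34 had few control counts.

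The CTT counterpart of this piece, tRF_5_36, which differs only at A7C, had 3, 0 and 0 counts in controls and 0, 2 and 1 in knockouts. It was too rare to be tested. The 17-nt TTT piece tRF_5_19, 1 base shorter than tRF_5_34, had 37, 1 and 3 counts in controls and 20, 14 and 9 in knockouts. Control replicate 1 held most of its control counts and lay above every knockout library in counts. It was not called (log2 fold change 0.90 ± 0.87 SE, adjusted p = 0.49 by edgeR). Without control replicate 1 its log2 fold change was 3.10 (adjusted p = 0.0028 by edgeR). No 17-nt sequence of the CTT line was listed.

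The step from 17 to 18 nt shows the change within a library. Of the TTT counts at these lengths, 66.7% at most were 18 nt long in a control library and 68.3%, 87.2% and 90.4% in the knockouts. The lowest knockout value lay just above the highest control value (exact two-sided permutation test, p = 0.10). The control shares came from 6 of 43, 1 of 2 and 6 of 9 counts, so those of replicates 2 and 3 rest on very few.

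Members of 20 nt or less were then summed. They held 26.3%, 1.71% and 7.03% of TTT counts in controls and 39.0%, 56.9% and 59.6% in knockouts. The knockout libraries all lay higher, with means of 11.7% ± 12.9 and 51.9% ± 11.2 (SD, n = 3; exact permutation test, two-sided, p = 0.10, adjusted p = 0.13). In CPM their sum was 87.6 ± 92.6 in control and 778 ± 262 in knockout hearts (SD, n = 3), and its log2 fold change was 3.10 ± 0.86 (SE, adjusted p = 0.010 by edgeR). In the table with length classes summed, 14.6% of all tested rows were called higher and 17% lower. The call was lost without control replicate 3 or knockout replicate 3 (adjusted p = 0.053 and 0.059 by edgeR). In each knockout library most counts of this sum were those of tRF_5_34 (43, 95 and 85 in replicates 1 to 3). Of the other short members, tRF_5_19 (20, 14 and 9 counts there) was not called, and tRF_5_49 and tRF_5_62 did not pass the filter. The share and the sum thus mainly repeat the result for tRF_5_34 and do not show a rise across the length class.

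The CTT line had almost no short pieces. Its 2 members of 20 nt or less held 3 counts of 9131 in controls and 7 of 4063 in knockouts. Control replicates 2 and 3 and knockout replicate 1 had 0 such counts, which allows a share of up to 0.0892%, 0.103% and 0.169% of their CTT counts (counting error only). The short share was higher in the TTT line than in the CTT line in 6 of 6 libraries, by a mean of 31.6 percentage points ± 24.4 (SD; exact sign-flip permutation test over libraries, p = 0.031, the smallest that 6 libraries allow, adjusted p = 0.038 over 6 tests). That gap was 11.6 points ± 12.9 in controls and 51.7 ± 11.0 in knockouts (SD, n = 3; exact two-sided permutation test of the difference, p = 0.10).

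A rise of short 5′ fragments was also measured outside the lysine lines. Of 14 other tRF_5 sequences of 18 nt, 4 were tested; edgeR called 2 of them higher and 0 lower, and their median log2 fold change was 2.16. At 20 nt or less 10 of 62 were tested, with 4 called higher, 0 lower and a median of 1.77. The background over all 254 tested sequences was 15.7% called higher and 16.9% lower. The filter admits a rare sequence on fewer counts in a knockout than in a control library. These medians and calls therefore favour short sequences that are high in knockouts. As a share of other 5′ fragment counts up to 35 nt, pieces of 20 nt or less made up 0.0739% ± 0.0415 in controls and 0.994% ± 0.298 in knockouts (SD, n = 3), and the groups did not overlap.

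The next pieces of the TTT line end in the 3′ strand of the D stem. The 23-nt tRF_5_104 had 7, 1 and 4 counts in controls and 9, 12 and 14 in knockouts, and every knockout count lay above every control count. Its CPM rose from 20.7 ± 12.8 to 99.5 ± 28.7 (SD, n = 3), and its log2 fold change was 2.19 ± 0.74 (SE, adjusted p = 0.031 by edgeR). That call was weak. It was lost when control replicate 2 or 3 or any 1 knockout library was left out (adjusted p from 0.069 to 0.16 by edgeR), as well as with no filter (adjusted p = 0.37 by edgeR) and by DESeq2 (adjusted p = 0.14). The 24-nt tRF_5_121 had 10, 0 and 1 counts in controls and 9, 10 and 12 in knockouts. It did not pass (log2 fold change 2.23 ± 0.86 SE, adjusted p = 0.056 by edgeR), but was called without control replicate 1, which held most of its control counts (log2 fold change 4.40, adjusted p = 0.00091 by edgeR). At 22 nt, tRF_5_88 had 7, 2 and 9 counts in controls and 2, 4 and 0 in knockouts. The 25-nt tRF_5_139 had 9, 1 and 1 against 3, 3 and 5. Neither passed the filter, so neither was tested. The filter admits a sequence on fewer counts in a knockout than in a control library. The D-stem members tested were thus those with more counts in knockouts. Over the 4 members of 22 to 25 nt, D-stem pieces made up 11.2% ± 7.52 of TTT counts in controls and 15.9% ± 2.48 in knockouts (SD, n = 3), and the groups overlapped. The CTT line had 2 counts at 25 nt and no member at 22 to 24 nt.

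Of the pieces that end in the anticodon stem, 1 was called lower. In the A form of the CTT line, tRF_5_223 had 146, 104 and 136 counts in controls and 7, 15 and 9 in knockouts. The groups were far apart. Its CPM fell from 716 ± 162 to 88.4 ± 40.3 (SD, n = 3), and its log2 fold change was -3.01 ± 0.72 (SE, adjusted p = 0.0039 by edgeR). The call was lost without knockout replicate 1 (adjusted p = 0.057 by edgeR) and with library totals alone, where the log2 fold change was -0.87 (adjusted p = 0.40 by edgeR).

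This fall can also be read within libraries, where scaling plays no part. The 29-nt piece made up 5.79%, 3.93% and 5.92% of A-form counts in controls and 0.476% to 1.32% in knockouts, that is 5.21% ± 1.12 and 0.983% ± 0.446 (SD, n = 3). The groups did not overlap (exact two-sided permutation test, p = 0.10, adjusted p = 0.23 over 7 lengths). Of CTT counts at 28 to 32 nt, the 29-nt pieces made up 15.8%, 16.2% and 26.6% in controls and 1.71%, 6.20% and 2.93% in knockouts.

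The rarer 29-nt pieces were singled out after their values were seen, and neither passed the filter. In the G form, tRF_5_224 had 10, 10 and 16 counts in controls and 1, 0 and 0 in knockouts. In the TTT line, tRF_5_222 had 26, 5 and 5 counts in controls and 0 in all 3 knockouts. Control replicate 1 held 26 of the 36 control counts of tRF_5_222. With no filter edgeR called both lower (adjusted p = 0.0050 for tRF_5_222 and 0.013 for tRF_5_224), and DESeq2 also called both. Among other tRF_5 sequences of 29 nt edgeR called 9 of 10 tested lower and 1 higher (median log2 fold change -3.60).

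On TMM-scaled totals no tested lysine member of 28, 30, 31 or 32 nt was called. In the CTT line tRF_5_198 (28 nt) had 71, 46 and 42 counts in controls and 28, 7 and 7 in knockouts, a log2 fold change of -1.33 ± 0.74 (SE, adjusted p = 0.19 by edgeR). At 30 nt tRF_5_257 stood at -1.16 ± 0.70, at 31 nt tRF_5_287 at -0.45 ± 0.62 and at 32 nt tRF_5_321 at 0.24 ± 0.58 (SE; adjusted p = 0.24, 0.64 and 0.81 by edgeR). With library totals alone the log2 fold changes at 28, 30 and 31 nt were 0.73, 1.04 and 1.40, above 0, and tRF_5_321 at 32 nt was called higher (2.40, adjusted p = 0.029 by edgeR). The sum of the 4 CTT members of 27 to 29 nt fell from 1082 ± 165 to 244 ± 107 CPM (SD, n = 3), and its log2 fold change was -2.14 ± 0.65 (SE, adjusted p = 0.018 by edgeR). This call was lost without any 1 knockout library (adjusted p from 0.084 to 0.14 by edgeR), and with library totals alone the value was 0.00 (adjusted p = 1.0 by edgeR). The 28-nt TTT piece tRF_5_197 had 12, 11 and 5 counts in controls and 8, 14 and 7 in knockouts, a log2 fold change of 0.69 ± 0.68 (SE, adjusted p = 0.49 by edgeR), and was called higher with library totals alone (2.89, adjusted p = 0.030 by edgeR).

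At 32 nt the share within libraries was higher in each knockout library than in each control. The 32-nt tRF_5_321, the first length to end in the anticodon loop, had 266, 247 and 162 counts in controls and 234, 148 and 143 in knockouts. As a share of A-form counts it was 8.98% ± 1.77 in controls and 15.8% ± 2.70 in knockouts (SD, n = 3). With 3 against 3 libraries the exact two-sided permutation test gave p = 0.10, adjusted p = 0.23 over 7 lengths. The 34-nt tRF_5_385 was besides 29 and 32 nt the only A-form length whose shares did not overlap, and it was lower in knockouts, at 9.63% ± 1.29 in controls and 7.04% ± 1.43 in knockouts (SD, n = 3; exact permutation test, two-sided, p = 0.10, adjusted p = 0.23).

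Most lysine counts ended in the anticodon loop. In the CTT line 82.2% ± 6.88 of counts in controls and 86.5% ± 6.42 in knockouts were 32 to 35 nt long (SD, n = 3), with overlap between the groups. The most abundant member of all, tRF_5_416 (35 nt, A form), had 1065, 780 and 784 counts in controls and 433, 498 and 58 in knockouts. Knockout replicate 3 was far below the others, and in CPM each knockout library lay below each control. Its log2 fold change was -0.82 ± 0.70 (SE, adjusted p = 0.42 by edgeR). At 33 nt tRF_5_353 had 285, 957 and 812 counts in controls and 488, 317 and 380 in knockouts (log2 fold change -0.33 ± 0.65 SE, adjusted p = 0.77 by edgeR). Here control replicate 1 was the low library of its group. At 34 nt tRF_5_385 had 269, 266 and 188 counts against 114, 91 and 42 (log2 fold change -0.97 ± 0.61 SE, adjusted p = 0.27 by edgeR). The G-form 35-nt tRF_5_417 had 215, 619 and 527 counts against 244, 286 and 49 (log2 fold change -0.76 ± 0.72 SE, adjusted p = 0.48 by edgeR). All 4 values turned positive with library totals alone, from 1.27 to 2.27, and tRF_5_353 was then called higher (adjusted p = 0.017 by edgeR).

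Of the CTT counts at 33 and 35 nt in the A form, the 35-nt piece took 78.9%, 44.9% and 49.1% in controls and 47.0%, 61.1% and 13.2% in knockouts. The 2 extremes, control replicate 1 and knockout replicate 3, were in different groups. The low value of knockout replicate 3 moved with its low share of 34- to 36-nt pieces among other 5′ fragments, given above; whether the 2 share a source was not tested. Without knockout replicate 3 the log2 fold change of tRF_5_416 was -0.30 and that of the summed CTT line was -0.28.

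The TTT line and the A and G forms of the CTT line divided their counts differently over the bases of the anticodon loop. The A form had no single main end: it was most abundant at 35 nt in control replicate 1 and knockout replicate 2 and at 33 nt in the other 4 libraries. Of A-form counts, 33-nt pieces, which end on the T before the anticodon, made up 11.3%, 36.1% and 35.4% in controls and 33.2%, 27.8% and 48.8% in knockouts. Of G-form counts they made up 2.36%, 1.34%, 0.883%, 0%, 0.347% and 5.36% in the same order. The A form was higher in 6 of 6 libraries, by a mean of 30.4 percentage points ± 11.7 (SD; exact sign-flip permutation test over libraries, p = 0.031, adjusted p = 0.038 over 6 tests). The G form was concentrated at 35 nt, which ends on the second base of the anticodon: 84.6%, 92.4% and 93.1% of its counts in controls and 93.5%, 99.3% and 87.5% in knockouts. The corresponding A-form shares ran from 7.46% to 43.7%. The gap was 60.7 percentage points ± 12.3 (SD) and had the same sign in 6 of 6 libraries (exact sign-flip permutation test, p = 0.031, adjusted p = 0.038). The 33- and 35-nt shares of a form are parts of 1 total, so these 2 contrasts are not independent. Neither was among the planned tests.

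Read by length from 30 to 36 nt, the G share of CTT counts was highest at 35 and 36 nt. It was 0% to 1.49% at 30 nt, 0% to 0.529% at 31 nt, 0% to 1.38% at 32 nt, 0% to 2.06% at 33 nt and 0% to 10.7% at 34 nt over the 6 libraries. At 35 nt it was 16.8% to 45.8%. At 36 nt, just outside the length limit, it was 23.1% to 50.0%. The share did not rise steadily from 29 nt, where the sequence ends on the differing base itself. At 29 nt it was 6.41%, 8.77% and 10.5% in controls. In knockouts it was 12.5%, 0% and 0%, from only 8, 15 and 9 counts. The lowest values at 35 and 36 nt were both those of control replicate 1, and control replicates 2 and 3 stood at 44.2% and 40.2% at 35 nt.

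The long pieces of the TTT line mostly ended at 33 nt. Among its counts of 33 to 35 nt, tRF_5_351 (33 nt) held 89.7%, 95.2% and 89.9% in controls and 96.6%, 96.8% and 88.5% in knockouts. The 35-nt tRF_5_414 held 7.69%, 3.57% and 7.87% in controls, from 3, 3 and 7 counts, and 0% in each knockout library. Over the same lengths the 35-nt share of the A form exceeded that of the TTT line in 6 of 6 libraries, by 39.7 percentage points ± 16.6 (SD; exact sign-flip permutation test, p = 0.031, adjusted p = 0.038). The level of tRF_5_351 overlapped between the groups, with 35, 80 and 80 counts in controls and 56, 30 and 23 in knockouts (log2 fold change -0.37 ± 0.71 SE, adjusted p = 0.75 by edgeR). With library totals alone tRF_5_351 was called higher (2.16, adjusted p = 0.048 by edgeR). Anticodon-loop pieces of 32 to 35 nt made up 24.0%, 71.8% and 69.5% of TTT counts in controls and 35.4%, 19.5% and 15.7% in knockouts, so that control replicate 1 lay inside the knockout range.

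The length limit of 35 nt is also the upper end of the size selection (15 to 35 nt). Whether recovery near that end differed between libraries was not tested. The length limit falls within the loop. Just inside it, at 35 nt, the TTT line had 13 counts in controls and 0 in knockouts, the A form 2629 and 989, and the G form 1361 and 579. Just outside, at 36 nt, where a fragment holds the whole anticodon, the TTT piece tRF_5_437 had 106 and 50 counts, the A-form tRF_5_438 had 787 and 249, and the G-form tRF_5_439 had 480 and 211. The TTT line thus had more counts at 36 nt than at 35 nt in all 6 libraries, and both CTT forms had fewer. All 3 pieces of 36 nt were tested and none was called (log2 fold change -0.61, -1.11 and -0.72, adjusted p = 0.62, 0.30 and 0.54 by edgeR). The other 15 same-start sequences over 35 nt did not pass the filter.

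The selenocysteine-type members were rare and short. They held 21, 11 and 19 counts in controls and 18, 6 and 20 in knockouts, and the groups overlapped. Of their 95 counts, 82 were in members of 20 nt or less, 11 in the 22-nt tRF_5_89 and 2 in members of 33 and 35 nt. The most abundant was the 16-nt tRF_5_7, with 1, 5 and 11 counts in controls and 5, 2 and 5 in knockouts. The 19-nt tRF_5_50 had 6, 0 and 0 counts in controls and 6, 2 and 5 in knockouts, and the 15-nt tRF_5_1 had 6, 1 and 2 against 1, 1 and 5. Their sum had a log2 fold change of 0.34 ± 0.67 (SE, adjusted p = 0.76 by edgeR). This start was thus read mainly as pieces of 22 nt or less in both groups, while the CTT line, with the same first 6 bases, had 19 of its 13194 counts in members up to 26 nt.

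The 3′ ends of the same tRNAs were looked for among the 347 CCA-ending fragments (class tRF_3). The rule asked whether the 7 bases before the last 4 pair, with G-T pairs allowed, with bases 1 to 7 of a lysine line; the capitals below mark those 7 bases. It found 5 sequences for the TTT line and 2 for the CTT line. All were nearly absent. The TTT-pairing sequences held 7 counts in controls and 5 in knockouts in all, and the CTT-pairing ones 6 and 5. The bases 1 to 7 of 1 other tRF_5 start also paired with the TTT set. The selenocysteine-type members share bases 1 to 7 with the TTT line, so this rule does not separate those 2 types. The most abundant sequence of each set is printed.
tRF_3_2: tgTTCGGGCgcca
tRF_3_3: cacGTTGGGCgcca

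Among all other tRF_5 sequences up to 35 nt, edgeR called 24 higher and 29 lower of 106 tested (median log2 fold change -0.13). The 1 sequence starting with gcctgg, a variant of the lysine start, had 1 count in all.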

How the data were processed

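Raw counts per tRF sequence were deposited by the authors, 1 column per mouse per the file headers; no column belonged to another sample. The submitters' processing notes name build mm10, DESeq2 1.16.1, cutadapt 1.1.4 and Bowtie2 2.2.9. Per the labels' protocols, small RNA of 15 to 35 nt was selected and 4 technical replicates were sequenced per mouse; neither their merging nor the mapping rules is described (not given in the sources used here). Reads that fit several tRNA copies cannot be traced to 1 gene. The authors' normalized counts and comparison were not used.

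Counts of the whole table were tested with edgeR 4.0.16 (R 4.3.3), quasi-likelihood, group as the only term, TMM, filterByExpr with a minimum count of 10, and Benjamini-Hochberg adjustment at 0.05. The filter is relative to each library's tRF total, so a knockout library passes with fewer counts. Sums of members replaced the members in otherwise the same table. Each SE was the size of the log2 fold change over the square root of its F. Shares within libraries were compared with exact permutation tests over 20 assignments (SciPy 1.17.1), and lines within libraries with exact sign-flip tests, whose smallest p with 6 libraries is 0.031. The 6 sign-flip contrasts were not among the planned tests. In 1 of them, the share of 27 to 31 nt, the CTT line exceeded the TTT line in 3 of 6 libraries (exact sign-flip permutation test, p = 0.625). The labels do not say more about the replicates than that they are separate mice.

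The members and lists were chosen with earlier results of these data known. The naming rule took the 3 members with the highest mean CPM per subgroup, every called member, tRF_5_34 and the pieces at 35 and 36 nt. Other members were named after their values were seen. The self-test on simulated data was run on the same edgeR step. It called 35 of 37 sequences with a log2 change of size 4 and 8 of 20 with one of size 2. Of 216 unchanged sequences it called 5. Changes of size 2 were thus often missed. The simulation held no general shift between the groups, while the TMM factors of the data ran from 0.215 (control replicate 2) to 2.56 (knockout replicate 2). It therefore does not test the scaling. Same-numbered replicates did not deviate together (correlations over 254 sequences of -0.0054, 0.29 and 0.045), so they were not treated as pairs.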

Additional observations from a re-analysis of the deposited data

How the results depend on the processing

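Other settings tried were library totals alone, DESeq2's size factors, no filter, DESeq2 1.42.0 as the test, the replicate number as a block, and each library left out; those for the 2 length-class sums and for single members were chosen after seeing the data. No 2 rows of the table share a sequence, so collapsing identical sequences changed nothing. Members called higher, 2 in the main test, were 7 with library totals alone, 1 with no filter, 1 by DESeq2 and 1 with the replicate block, and 1 to 4 with a library left out. Over all tested sequences the share called higher was 15.7% in the main test, 40.9% with library totals alone and 1.87% with no filter. It was 7.69% by DESeq2, 13.8% with the replicate block and 8.99% to 23.2% with a library left out. The 4 calls came without control replicate 1, the setting with 23.2%. Members called lower, 1 in the main test, were 0 with library totals alone, 3 with no filter and 3 by DESeq2, and 0 to 1 with a library left out. Over all tested sequences the share called lower was 16.9%, 2.76%, 5.54%, 15.4% and 9.86% to 19.9% in the same order. The number of members tested was 15 in the main test, 47 with no filter, 25 by DESeq2 and 13 to 19 with a library left out. The TTT sum was called with library totals alone (3.01), the CTT sum turned to 1.70, and the CTT sum of 27 to 29 nt to 0.00019. With a library left out the TTT sum ran from 0.78 to 1.28, the CTT sum from -0.98 to -0.28, the TTT sum of 20 nt or less from 2.58 to 4.33 and the CTT sum of 27 to 29 nt from -2.30 to -1.84. The knockout minus control difference in the TTT share of lysine counts was 7.76 percentage points in all. It was -0.14 among members of 20 nt or less, where the CTT line held too few counts to compare the groups. The log2 fold changes of tRF_5_351, tRF_5_198, tRF_5_257, tRF_5_287, tRF_5_353, tRF_5_385, tRF_5_416 and tRF_5_417 turned positive with library totals alone (2.16, 0.73, 1.04, 1.40, 2.27, 1.27, 1.39 and 1.91), and that of tRF_5_321 turned to -0.13 with no filter. The block left tRF_5_34 and tRF_5_223 called and, over all 254 sequences, 35 higher and 31 lower against 40 and 43; tRF_5_104 was lost (edgeR adjusted p = 0.061). Counts of a few reads per library limit the TTT and selenocysteine-type values.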
